A study of Mus musculus with 12 samples.

Results

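The genes described here are 8 members of the IL-6 and IL-10 cytokine systems: the ligands Il6, Osm, Lif and Il10, and the receptor chains Il6ra, Il6st, Il10ra and Il10rb. They were chosen by gene symbol, and all 8 were found among the 32246 genes of the deposited table, each once. Total RNA was sequenced from mouse bone marrow-derived macrophages, primary phagocytes grown from marrow for 7 days in GM-CSF at 50 ng/mL. There were 3 groups of 4 libraries. In PLG+EACA+RNase, cells received for 24 h plasminogen (PLG, the zymogen of plasmin) that had been exposed to EACA, a lysine analogue that binds plasminogen, and to RNases. In PLG+EACA, cells received for 24 h plasminogen exposed to EACA but not to RNases. The third group was untreated. All 3 groups had been grown in GM-CSF, and no group received EACA alone, RNases alone or plasminogen without EACA. Against untreated cells the effect of plasminogen itself cannot be told apart from that of the agents given with it. The mouse strain and the age of the animals are not given in the labels. Nothing in the labels tells if replicate libraries stand for separate animals or cultures, and p-values therefore measure only the spread between these libraries.

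IL-6, oncostatin M (Osm) and leukaemia inhibitory factor (Lif) are secreted cytokines whose receptors all contain gp130, the signalling chain encoded by Il6st. IL-6 first binds its own receptor chain, encoded by Il6ra, whereas LIF and, in mice, oncostatin M pair gp130 with LIFR or OSMR. IL-10 binds IL-10RA, encoded by Il10ra, which signals together with the shared chain IL-10RB, encoded by Il10rb. Gp130 and the IL-10 receptor both signal through JAK kinases to STAT3, yet in macrophages IL-10 is known mainly for restraining inflammatory cytokine production, and IL-6 is one of the cytokines it restrains.

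RefSeq promoters (GRCm38.p6) were matched for 4 of the 8 genes. All that were matched are shown, whatever the direction of the gene, and Osm, Il10, Il10ra and Il10rb had no entry. Each line gives the 250 bases before the RefSeq start, 5′ to 3′ on the strand of the gene, with motif matches in capitals. Il6 lies at chr5:30012864-30013113, plus strand, Lif at chr11:4257318-4257567, plus strand, Il6ra at chr3:89913197-89913446, minus strand, and Il6st at chr13:112463820-112464069, plus strand.
Il6: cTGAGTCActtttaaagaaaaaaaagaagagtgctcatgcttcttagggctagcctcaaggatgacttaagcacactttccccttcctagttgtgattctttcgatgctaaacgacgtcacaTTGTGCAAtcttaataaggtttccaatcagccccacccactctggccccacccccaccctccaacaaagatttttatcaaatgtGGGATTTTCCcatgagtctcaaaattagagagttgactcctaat
Lif: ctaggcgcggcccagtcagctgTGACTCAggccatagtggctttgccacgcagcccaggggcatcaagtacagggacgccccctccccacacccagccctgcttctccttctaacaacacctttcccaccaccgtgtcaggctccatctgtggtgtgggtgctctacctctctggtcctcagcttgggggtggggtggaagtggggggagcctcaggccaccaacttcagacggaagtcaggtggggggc
Il6ra: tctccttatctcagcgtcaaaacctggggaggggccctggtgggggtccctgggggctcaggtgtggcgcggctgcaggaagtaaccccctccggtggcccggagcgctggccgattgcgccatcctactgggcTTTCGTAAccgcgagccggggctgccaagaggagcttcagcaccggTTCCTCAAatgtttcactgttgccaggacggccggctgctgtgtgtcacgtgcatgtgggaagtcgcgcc
Il6st: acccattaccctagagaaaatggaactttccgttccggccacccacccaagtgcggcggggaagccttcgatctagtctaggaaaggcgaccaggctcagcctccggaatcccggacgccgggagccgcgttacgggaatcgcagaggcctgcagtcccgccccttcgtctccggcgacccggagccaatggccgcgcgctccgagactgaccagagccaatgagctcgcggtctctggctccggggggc
The motifs searched on both strands were kappa B (GGGA, any base, TTTCC), AP-1 (TGANTCA), C/EBP (TTNNGNAA), GAS (TTCNNNGAA), CRE (TGACGTCA), ISRE (GAAA, any 2 bases, GAAA) and TATAAA, in which N is any base. The Il6 window held a kappa B match, GGGATTTTCC, at 44 to 35 bases before the start. It also held a C/EBP match, TTGTGCAA, at 128 to 121 bases and an AP-1 match, TGAGTCA, at 249 to 243 bases before the start. The Lif window held an AP-1 match, TGACTCA, at 228 to 222 bases. The Il6ra window held C/EBP matches, TTTCGTAA at 116 to 109 bases and TTCCTCAA at 70 to 63 bases, and the Il6st window held a match to none of the 7 motifs. No matches overlapped. Of 32851 mouse promoter windows of this length, 0.356% held the kappa B motif, 6.75% the AP-1 motif and 36.8% the C/EBP motif. GAS was in 7.02% of the windows, CRE in 1.55%, ISRE in 2.98% and TATAAA in 12.4%. A match describes the letters of the window and is neither a binding site nor a cause of a difference in expression.

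The genome positions that follow are those of the deposited table, in GRCm38 and the same in GENCODE M21. Il6 is at chr5:30013114-30019981 on the plus strand. Osm, at chr11:4236420-4241026, and Lif, at chr11:4257557-4272514, are neighbours on the plus strand with 16530 bases and 0 other annotated genes between them. Il6ra is at chr3:89864059-89913196 on the minus strand and Il6st at chr13:112464070-112510086 on the plus strand. Il10 is at chr1:131019845-131024974 on the plus strand. Il10ra is at chr9:45253837-45269149 on the minus strand and Il10rb at chr16:91406164-91425834 on the plus strand. Whether the authors' counting used strand is not stated. Il6ra shares 281 bases with the antisense gene Gm42809, whose group means were at most 0.0675 FPKM. Il10ra shares 236 bases with the pseudogene Gm20612 on the opposite strand, whose means were 2.55 FPKM in PLG+EACA+RNase, 2.60 FPKM in PLG+EACA and 2.57 FPKM in untreated cells. Il10rb shares 13288 bases with the protein-coding gene Gm21970 on its own strand, so its values are uncertain to that extent.

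FPKM, fragments scaled to the length of the gene and to the total counted in the library, is a level per length and allows comparison between genes. The libraries held 12940887 to 22677040 counted reads, worked out from the smallest steps between FPKM values. Differences were tested with limma on log2(FPKM + 0.5) over 11165 genes, with Benjamini-Hochberg adjustment over all of them and a threshold of 0.05. All 8 genes entered the test, but Il10 did so through the treated libraries only, with 0 of 4 untreated libraries at 1 FPKM or more. Il6ra entered through the 4 untreated and 3 of the PLG+EACA libraries, with 0 of 4 PLG+EACA+RNase libraries at 1 FPKM or more. Macrophage markers summed to 3974 to 4485 FPKM in PLG+EACA+RNase, 3974 to 5810 FPKM in PLG+EACA and 5203 to 5801 FPKM in untreated libraries, and were present as the label says. Markers of dendritic cells, which GM-CSF cultures of marrow also hold, summed to 824.5 to 885.9, 737 to 882.6 and 887.7 to 932.4 FPKM in the same groups, mostly Itgax and H2-Aa. Most of the macrophage sum was Lyz2, at means of 3615 FPKM in PLG+EACA+RNase, 4289 FPKM in PLG+EACA and 4663 FPKM in untreated cells. Not all markers of a list ran the same way: Csf1r averaged 185.7, 186.5 and 324.4 FPKM in those groups, against 9.20, 13.85 and 5.97 FPKM for Mertk, and Itgax averaged 405.2, 386 and 506.6 FPKM, against 121.6, 99.85 and 78.54 FPKM for Ccr7. The part of these markers in the results was not tested. The 5 T cell, 4 B cell and 2 NK cell markers each summed, as lists, to at most 0.76 FPKM in every library. In bulk RNA, fewer cells of a type and less RNA per cell cannot be told apart.

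In PLG+EACA, 5 of the 8 genes were higher than in untreated cells (Il6, Osm, Lif, Il10 and Il10ra), 2 were lower (Il6ra and Il6st) and Il10rb did not pass the test. Of all genes tested, 68.3% passed in this comparison, 14.9% higher and 53.4% lower. With RNase exposure added, the same 5 were higher in PLG+EACA+RNase than in untreated cells, and 3 were lower (Il6ra, Il6st and Il10rb, of which Il10rb turned its sign with another scaling), beside 64.4% of all genes, 16.0% higher and 48.4% lower. Between PLG+EACA+RNase and PLG+EACA, 2 of the 8 were lower (Il6 and Lif) and 0 higher, beside 20.8% of all genes, 12.1% higher and 8.73% lower. Since most of the genes tested passed against untreated cells, the number of members passing in either direction is no result about them. Between the treatments, 2 of 8 is near the share of all genes tested. The comparisons with untreated cells rest on 1 set of 4 untreated libraries, and the PLG+EACA libraries are part of the first and the third comparison. The median log2 fold change of all genes was -0.26 for PLG+EACA and -0.20 for PLG+EACA+RNase against untreated cells. Scaling by median-of-ratios moved these medians to -0.01 and 0.01, and the split of all called genes from 1661 higher and 5963 lower to 3050 higher and 2942 lower for PLG+EACA. For PLG+EACA+RNase the split was 1783 higher and 5408 lower without that scaling, against 3169 higher and 2953 lower with it. The directions given here for Il6, Osm, Lif, Il10, Il10ra, Il6ra and Il6st against untreated cells were the same with that scaling.

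**Figure D1:**
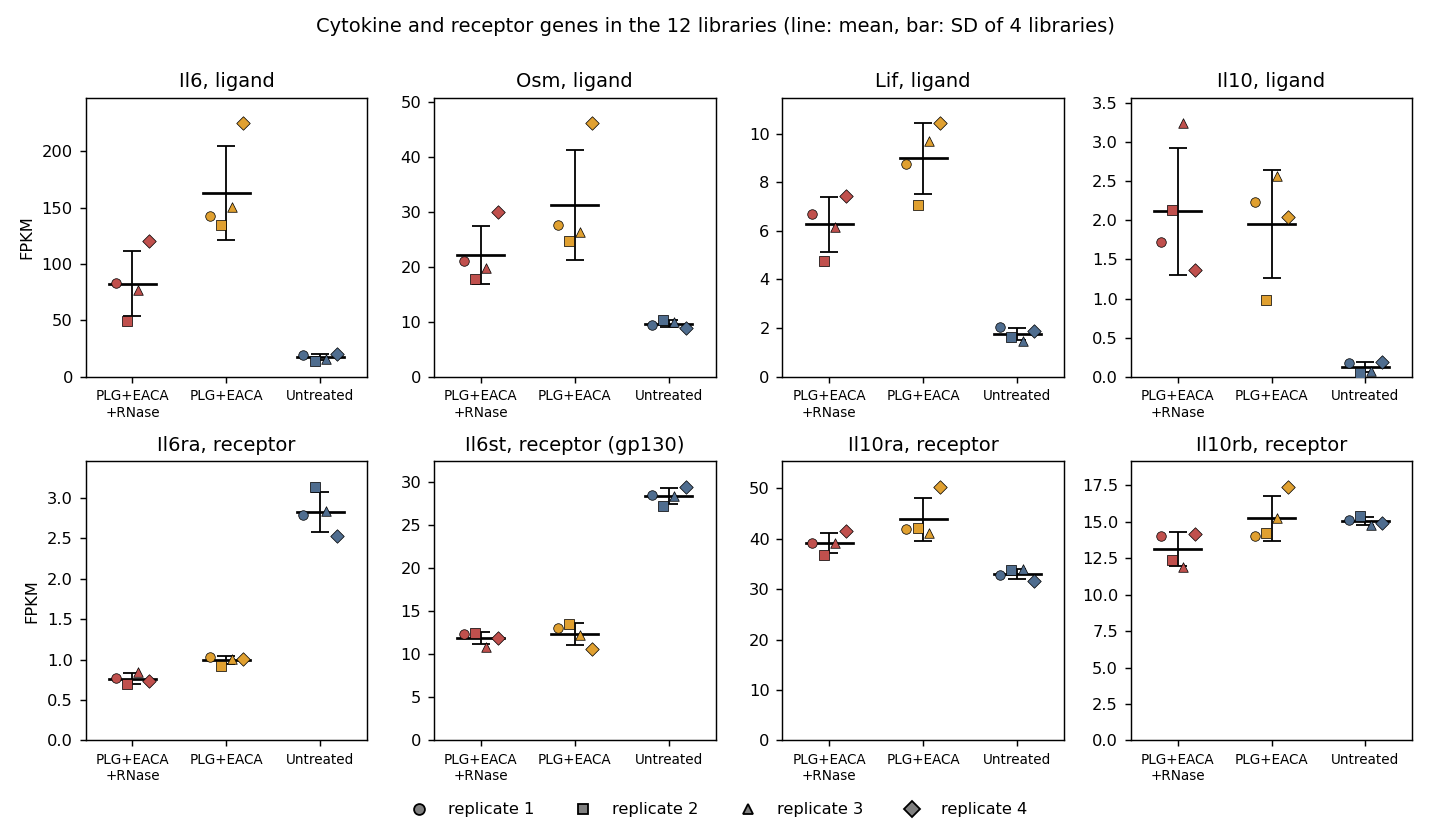
FPKM (vertical axes, each from 0) of the 8 genes in the 12 libraries of the 3 groups; points are libraries, shaped by replicate, lines are means and bars are SD of 4 libraries. All treated libraries lie above the untreated ones for Il6, Osm, Lif and Il10 and below them for Il6ra and Il6st, while Il10rb lies near 15 FPKM in untreated cells with overlapping PLG+EACA values.

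Il6, which encodes the pro-inflammatory and acute-phase cytokine IL-6, was higher in both treatments than in untreated cells and lower in PLG+EACA+RNase than in PLG+EACA. Its level was 83.6, 49.7, 76.8 and 120.3 FPKM in replicates 1 to 4 of PLG+EACA+RNase, 142.7, 134.8, 151.1 and 225.2 FPKM in PLG+EACA, and 19.7, 14.0, 16.1 and 20.03 FPKM in untreated cells. The 3 groups did not overlap: every PLG+EACA library was above every PLG+EACA+RNase library, and the lowest of those was above every untreated one. Replicate 4 was the highest library of each group. The means were 82.6 ± 29.1 FPKM in PLG+EACA+RNase, 163 ± 41.7 FPKM in PLG+EACA and 17.4 ± 2.91 FPKM in untreated cells (SD, n = 4 each). Against untreated cells, the log2 fold change was 2.16 (95% interval 1.64 to 2.68) in PLG+EACA+RNase and 3.18 (2.66 to 3.69) in PLG+EACA (limma, Benjamini-Hochberg adjusted p = 1.03e-05 and 6.10e-07). It was the 64th and the 21st highest of 11165 in those comparisons. Between PLG+EACA+RNase and PLG+EACA the log2 difference was -1.02 (95% interval -1.54 to -0.50; limma, Benjamini-Hochberg adjusted p = 0.0150), the 48th lowest of 11165. Fitted on the 8 treated libraries alone, the difference kept its size and the adjusted p was 0.0505 (limma, Benjamini-Hochberg).

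Lif, which encodes a cytokine best known for stem cell maintenance and the acute-phase response, was low in untreated cells and higher after both treatments. Its level was 6.71, 4.76, 6.15 and 7.45 FPKM in PLG+EACA+RNase, 8.77, 7.05, 9.70 and 10.4 FPKM in PLG+EACA, and 2.05, 1.63, 1.48 and 1.89 FPKM in untreated cells. All treated libraries were above all untreated ones, and the treated groups overlapped in 1 pair of libraries, replicate 4 of PLG+EACA+RNase and replicate 2 of PLG+EACA. The log2 fold change of Lif against untreated cells was 1.57 (95% interval 1.26 to 1.88) in PLG+EACA+RNase and 2.06 (1.75 to 2.37) in PLG+EACA (limma, Benjamini-Hochberg adjusted p = 2.37e-06 and 3.41e-07). PLG+EACA+RNase was lower than PLG+EACA by a log2 difference of -0.49 (95% interval -0.80 to -0.18; limma, Benjamini-Hochberg adjusted p = 0.0308). That call ended without replicate 2 or 3 of PLG+EACA+RNase (adjusted p = 0.0851 and 0.0747, limma) or without replicate 1, 3 or 4 of PLG+EACA (0.0546, 0.0619 and 0.0807). It also ended with no filter on low genes (0.0655) and on the 8 treated libraries alone (0.0739), with a negative log2 difference throughout.

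Osm, which encodes oncostatin M, a cytokine that macrophages release and stromal and endothelial cells respond to, had levels of 21.0, 17.9, 19.8 and 29.9 FPKM in PLG+EACA+RNase. Its levels were 27.6, 24.7, 26.3 and 46.1 FPKM in PLG+EACA and 9.34, 10.4, 9.92 and 8.94 FPKM in untreated cells. All treated libraries were above all untreated ones. The treated groups overlapped through replicate 4 of PLG+EACA+RNase, which was above replicates 1 to 3 of PLG+EACA. Set against untreated cells, Osm had a log2 fold change of 1.13 (95% interval 0.72 to 1.54) in PLG+EACA+RNase and 1.60 (1.19 to 2.01) in PLG+EACA (limma, Benjamini-Hochberg adjusted p = 0.000236 and 1.57e-05). The log2 difference between PLG+EACA+RNase and PLG+EACA was -0.47 (95% interval -0.88 to -0.06) and did not pass the test (limma, Benjamini-Hochberg adjusted p = 0.0974). It passed with array weights (-0.39, adjusted p = 0.04795, limma) and without replicate 4 of PLG+EACA+RNase (-0.62, adjusted p = 0.0226). In a fit chosen after seeing the data, it also passed without replicate 4 of both treatments (-0.42, adjusted p = 0.00288, limma).

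Il10, which encodes the anti-inflammatory cytokine IL-10, was near the limit of detection in untreated cells. Its level was 1.72, 2.13, 3.24 and 1.37 FPKM in PLG+EACA+RNase, 2.23, 0.976, 2.56 and 2.05 FPKM in PLG+EACA, and 0.176, 0.052, 0.075 and 0.182 FPKM in untreated cells. These values stand for 46, 47, 55 and 34 reads in PLG+EACA+RNase, 57, 29, 60 and 47 reads in PLG+EACA, and 5, 1, 2 and 4 reads in untreated cells. All treated libraries were above all untreated ones, and the treated groups overlapped widely, with the highest of the 8 treated libraries in PLG+EACA+RNase and the lowest in PLG+EACA. Summed over libraries and set per counted read, Il10 was 16.2 times higher in PLG+EACA+RNase (182 against 12 reads) than in untreated cells, with an exact 95% interval of 9.04 to 31.9. In PLG+EACA it was 15.3 times higher (193 against 12 reads; 8.56 to 30.1); both intervals cover counting error only. Il10 entered the test through its treated libraries only (0 of 4 untreated libraries at 1 FPKM or more). Its p-values against untreated cells are therefore given as description. On the log2(FPKM + 0.5) scale, which understates the change of so low a gene, the fold changes against untreated cells were 2.03 (95% interval 1.502 to 2.56) and 1.94 (1.41 to 2.47) for the same treatments (limma, Benjamini-Hochberg adjusted p = 1.92e-05 and 2.49e-05). Fitted by limma voom on the recovered reads, they were 3.89 and 3.77 (adjusted p = 0.000107 and 0.000121), larger than the 2.19 and 3.20 of Il6 in that fit. The log2 difference between PLG+EACA+RNase and PLG+EACA was 0.09 (95% interval -0.44 to 0.62; limma, Benjamini-Hochberg adjusted p = 0.808). That interval runs close to the -0.47 of Osm and the -0.49 of Lif, so the data do not show that the treatments act alike on Il10.

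**Figure D2:**
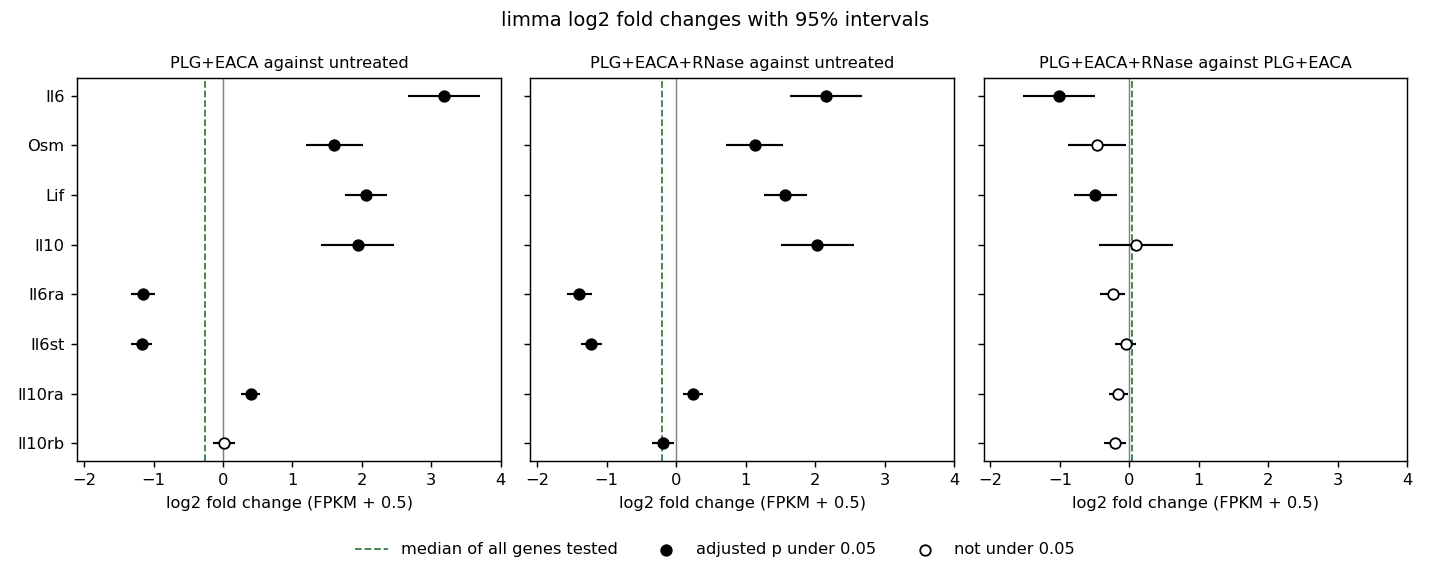
limma log2 fold changes on log2(FPKM + 0.5) (horizontal axes) of the 8 genes in the 3 comparisons, with 95% intervals; filled points have an adjusted p under 0.05, and the dashed green line is the median of all genes tested. This scale understates the changes of the low genes Il10 and Il6ra. Il6 is at 2.16 for PLG+EACA+RNase and 3.18 for PLG+EACA against untreated cells. Between the treatments, Il6 and Lif are the filled points.

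Il6ra encodes the ligand-binding chain for IL-6 and was lower after both treatments. Its level was 0.777, 0.693, 0.849 and 0.739 FPKM in PLG+EACA+RNase, 1.04, 0.924, 1.00 and 1.01 FPKM in PLG+EACA, and 2.80, 3.14, 2.84 and 2.53 FPKM in untreated cells. The 3 groups did not overlap, with PLG+EACA+RNase the lowest. Against untreated cells, the log2 fold change was -1.39 (95% interval -1.57 to -1.22) in PLG+EACA+RNase and -1.15 (-1.33 to -0.98) in PLG+EACA (limma, Benjamini-Hochberg adjusted p = 1.19e-07 and 3.89e-07). Those were the 54th and the 197th lowest of 11165. Il6ra entered the test through 4 of 4 untreated and 3 of 4 PLG+EACA libraries at 1 FPKM or more. In PLG+EACA+RNase, 0 of 4 libraries reached that level. The Il6ra p-values and ranks in comparisons with PLG+EACA+RNase are therefore given as description. The log2 difference between PLG+EACA+RNase and PLG+EACA was -0.24 (95% interval -0.42 to -0.07; limma, Benjamini-Hochberg adjusted p = 0.0515), just outside the threshold. It passed with a pseudocount of 0.1 (adjusted p = 0.0388), with median-of-ratios scaling (0.0310), with limma voom on recovered reads (0.0247) and with robust limma (0.0473).

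Il6st encodes gp130, the signalling chain of the whole IL-6 family. Its level was 12.4, 12.4, 10.8 and 11.8 FPKM in PLG+EACA+RNase, 13.0, 13.5, 12.2 and 10.6 FPKM in PLG+EACA, and 28.5, 27.2, 28.3 and 29.4 FPKM in untreated cells. Every treated library was at less than 14 FPKM and every untreated one above 27 FPKM, and the treated groups overlapped. Both treatments differed from untreated cells, with a log2 fold change of -1.22 (95% interval -1.38 to -1.07) in PLG+EACA+RNase and -1.17 (-1.33 to -1.02) in PLG+EACA (limma, Benjamini-Hochberg adjusted p = 1.15e-07 and 1.48e-07). Between PLG+EACA+RNase and PLG+EACA the log2 difference was -0.05 (95% interval -0.20 to 0.10; limma, Benjamini-Hochberg adjusted p = 0.640), an interval that does not reach the -0.49 of Lif or the -1.02 of Il6.

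Il10ra encodes the ligand-binding chain for IL-10 and was the highest of the 8 genes in untreated cells. Its level was 39.2, 36.8, 39.1 and 41.5 FPKM in PLG+EACA+RNase, 41.9, 42.1, 41.1 and 50.3 FPKM in PLG+EACA, and 32.8, 33.7, 33.9 and 31.7 FPKM in untreated cells. All treated libraries were above all untreated ones, and replicate 4 of PLG+EACA stood above the rest. Against untreated cells, the log2 fold change was 0.24 (95% interval 0.10 to 0.38) in PLG+EACA+RNase and 0.40 (0.26 to 0.54) in PLG+EACA (limma, Benjamini-Hochberg adjusted p = 0.00541 and 0.000156). With median-of-ratios scaling they were 0.47 and 0.67. The log2 difference between the treatments was -0.16 (95% interval -0.30 to -0.02), which did not pass (limma, Benjamini-Hochberg adjusted p = 0.0975).

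Il10rb encodes the signalling chain that IL-10 shares with IL-22 and the interferon lambdas, and its values stayed within a narrow band. Its level was 14.0, 12.4, 11.9 and 14.2 FPKM in PLG+EACA+RNase, 14.0, 14.2, 15.3 and 17.4 FPKM in PLG+EACA, and 15.1, 15.4, 14.8 and 14.9 FPKM in untreated cells. The PLG+EACA+RNase libraries were all below the untreated ones, and the PLG+EACA libraries lay below, among and above the untreated ones. Against untreated cells, the log2 fold change was -0.20 (95% interval -0.35 to -0.04) in PLG+EACA+RNase (limma, Benjamini-Hochberg adjusted p = 0.0332). In PLG+EACA it was 0.01 (-0.15 to 0.17; adjusted p = 0.893, limma). These depended on the scaling: with median-of-ratios scaling the values were 0.03 (adjusted p = 0.791, limma) and 0.28 (adjusted p = 0.0179), so no direction against untreated cells is given for Il10rb. The call in PLG+EACA+RNase also ended with no filter on low genes (adjusted p = 0.0669, limma), without Gm26917 in the scaling (0.0767), without replicate 2 or 3 of that group (0.0839 and 0.0975) and without any 1 of the untreated libraries (0.0538 to 0.0734). Relative to the median of all genes, -0.20 and -0.26, the unscaled values are a difference near 0 in PLG+EACA+RNase and a positive one in PLG+EACA. The log2 difference between PLG+EACA+RNase and PLG+EACA was -0.21 (95% interval -0.37 to -0.05) and did not pass (limma, Benjamini-Hochberg adjusted p = 0.0624). It passed without replicate 4 of PLG+EACA+RNase (-0.24, adjusted p = 0.0337, limma). In a fit chosen after seeing the data, it also passed without replicate 4 of both treatments (-0.18, adjusted p = 0.0490, limma).

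**Figure D3:**
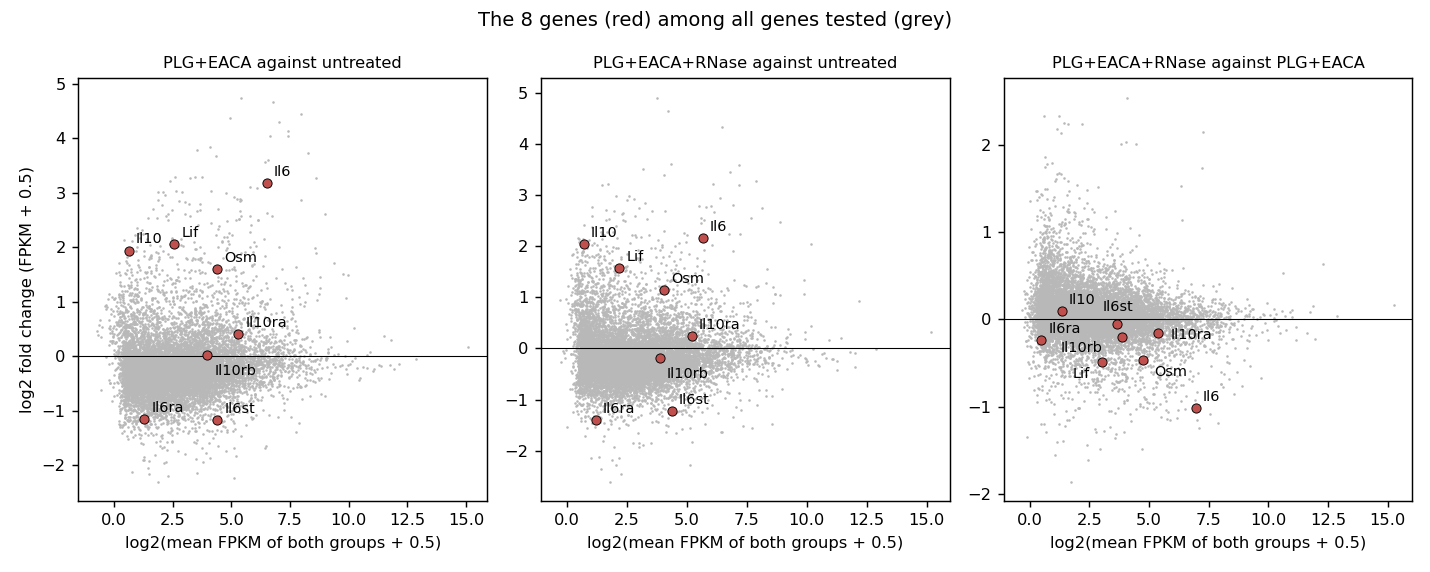
log2 fold change on log2(FPKM + 0.5) (vertical axis) against log2 of the mean FPKM + 0.5 of both groups (horizontal axis) for the 11165 genes tested (grey) and the 8 genes (red, labelled) in the 3 comparisons. Il6 stands in the upper part of the field against untreated cells and in the lower part between the treatments, Il6ra and Il6st lie along its lower edge against untreated cells, and Il10rb lies within it.

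The order of the levels differed between the groups. In PLG+EACA+RNase it was, from the highest mean down, Il6, Il10ra, Osm, Il10rb, Il6st, Lif, Il10 and Il6ra, and only the neighbours Il10rb and Il6st overlapped between libraries. In PLG+EACA the order was the same, with overlaps between Il10ra and Osm and between Il10 and Il6ra. In untreated cells the order was Il10ra, Il6st, Il6, Il10rb, Osm, Il6ra, Lif and Il10, and only Il6 and Il10rb overlapped. The shared signalling chain Il6st was thus above Il6 in every untreated library and below it in every treated one. Il6ra, the chain that binds IL-6, was below Il6 in every library of all groups.

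Ratios within a library, which do not depend on the scaling between libraries, are given as descriptions. The ratio of Il6 to Il10 had a median of 36.1 (23.3 to 87.8) in PLG+EACA+RNase, 87.0 (58.9 to 138) in PLG+EACA and 163 (110 to 269) in untreated cells, where 1 to 5 Il10 reads make it imprecise. The treated groups overlapped in that ratio, and so did PLG+EACA and untreated cells. The ratio of Il6 to Osm did not overlap between any of the groups, with a median of 3.93 (2.78 to 4.02) in PLG+EACA+RNase, 5.31 (4.88 to 5.74) in PLG+EACA and 1.86 (1.35 to 2.24) in untreated cells. The ratio of Il6st to Il6ra was 16.0 (12.8 to 17.9) in PLG+EACA+RNase, 12.3 (10.5 to 14.6) in PLG+EACA and 10.1 (8.67 to 11.6) in untreated cells, with each group overlapping the next. The ratio of Il10ra to Il10rb was 2.96 (2.80 to 3.28) in PLG+EACA+RNase and 2.92 (2.69 to 2.99) in PLG+EACA, against 2.18 (2.13 to 2.29) in untreated cells, and both treatments lay wholly above the untreated libraries.

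Within each treatment, replicate 4 was the highest of its group for Il6, Osm, Lif, Il10ra and Il10rb, 5 of the 8 genes, and replicate 2 the lowest for 5 of 8. For Il10, replicate 4 was the lowest library of PLG+EACA+RNase and the third highest of PLG+EACA. In untreated cells, replicate 4 was the highest for Il6, Il6st and Il10 and the lowest for Osm, Il6ra and Il10ra.

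**Figure D4:**
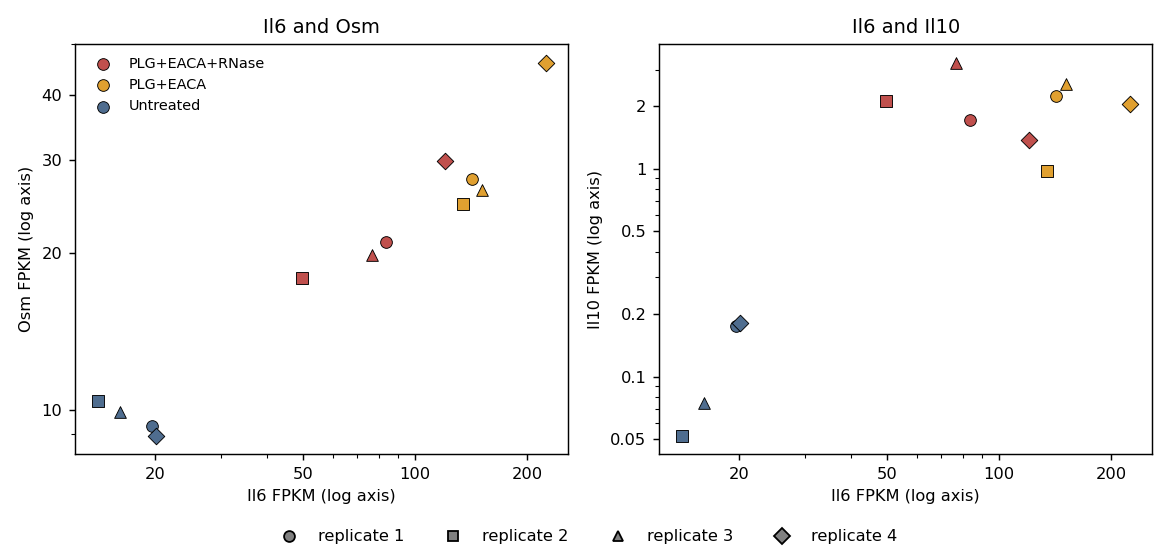
FPKM of Osm (left) and Il10 (right) on the vertical axes against Il6 on the horizontal axes, all on log axes, in the 12 libraries; colours are groups and shapes are replicates. Within the treatments, the library with the highest Il6 also has the highest Osm (120.3 and 29.9 FPKM in PLG+EACA+RNase, 225.2 and 46.1 FPKM in PLG+EACA), while that library is not the highest for Il10.

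The profiles most like those of Il6 and Il10 were sought among 10564 tested genes with a mean of at least 1 FPKM, by the root mean square distance of centred log2(FPKM + 0.5) over the 12 libraries. For Il6 they were Apol9b (0.16), Ereg (0.23), Tgtp2 (0.23), Ifi206 (0.24) and Il15 (0.24). Apol9b averaged 4.31 FPKM in PLG+EACA+RNase, 7.38 FPKM in PLG+EACA and 0.499 FPKM in untreated cells. At so low an untreated level the scale understates its change, so the likeness of Apol9b to Il6 holds on that scale only. Il15 averaged 12.03, 21.8 and 2.71 FPKM in the same groups. For Il10 they were AW011738 (0.24), Ptges (0.27), Csrnp1 (0.31), Mt1 (0.31) and Ankrd33b (0.32). That scale understates the change of Il10, which had 1 to 5 reads in untreated libraries. Its nearest genes are thus matched to log2 fold changes against untreated cells of 2.03 in PLG+EACA+RNase and 1.94 in PLG+EACA. By limma voom those of Il10 were 3.89 and 3.77. Ptges averaged 24.7 FPKM in PLG+EACA+RNase, 20.1 FPKM in PLG+EACA and 5.65 FPKM in untreated cells.

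Of 14 other ligand and receptor genes of the IL-6 family, 5 were tested. In PLG+EACA against untreated cells 2 were higher and 1 lower, with a median log2 fold change of 0.09 beside -0.26 for all genes. In PLG+EACA+RNase against untreated cells 2 were higher and 2 lower (median 0.12 beside -0.20), and 1 was lower in PLG+EACA+RNase than in PLG+EACA (median -0.09 beside 0.04). Of all genes, 14.9% were higher and 53.4% lower in the first of these comparisons, and 16.0% and 48.4% in the second. Between the treatments 12.1% of all genes were higher and 8.73% lower. Il27, which encodes the p28 subunit of IL-27, averaged 37.0 ± 17.2 FPKM in PLG+EACA+RNase, 80.3 ± 25.9 FPKM in PLG+EACA and 2.44 ± 0.516 FPKM in untreated cells (SD, n = 4 each). Its log2 fold changes against untreated cells were 3.60 and 4.75, and the difference between the treatments was -1.15 (limma, Benjamini-Hochberg adjusted p = 0.0155), with overlapping libraries. This call ended without replicate 2 or without replicate 3 of PLG+EACA+RNase, when 0 of the 5 genes passed between the treatments, and on the 8 treated libraries alone. Clcf1, a ligand of the CNTF receptor, averaged 8.72 ± 1.29 FPKM in PLG+EACA+RNase, 9.29 ± 0.758 FPKM in PLG+EACA and 4.16 ± 0.144 FPKM in untreated cells, with log2 fold changes against untreated cells of 0.97 and 1.07. Il11ra1, the receptor chain for IL-11, was lower in both treatments, at 27.3 ± 0.893, 26.6 ± 3.28 and 36.6 ± 1.58 FPKM in the same order of groups (log2 fold changes -0.42 and -0.46). The partner chains of gp130 for LIF and oncostatin M were near 0: Lifr averaged 0.0578, 0.086 and 0.123 FPKM and Osmr 0.0253, 0.0338 and 0.0388 FPKM in those groups.

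Of 11 other IL-10 family genes, 2 were tested. In PLG+EACA 2 were lower than in untreated cells (median log2 fold change -0.94), in PLG+EACA+RNase 1 was lower (median -0.71), and between the treatments 0 passed (median 0.24). These counts stand beside 53.4% and 48.4% of all genes lower against untreated cells, and 20.8% passing between the treatments. Il20rb, a receptor chain for IL-19, IL-20 and IL-24, averaged 1.79 ± 0.310 FPKM in PLG+EACA+RNase, 1.92 ± 0.336 FPKM in PLG+EACA and 4.58 ± 0.363 FPKM in untreated cells. Ifnlr1, the partner of IL-10RB in the interferon lambda receptor, averaged 1.205 ± 0.396, 0.659 ± 0.224 and 1.51 ± 0.252 FPKM in the same groups, and was lower in PLG+EACA than in untreated cells (log2 fold change -0.81; limma, Benjamini-Hochberg adjusted p = 0.00204). The cytokine gene Il19, below the filter, averaged 0.364 FPKM in PLG+EACA+RNase and 0.215 FPKM in PLG+EACA and was listed at 0 in all untreated libraries.

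Of 21 genes of JAK and STAT signalling and its inhibitors, all tested, 4 passed as higher and 8 as lower in PLG+EACA against untreated cells (median log2 fold change -0.08 beside -0.26 for all genes). For PLG+EACA+RNase against untreated cells the counts were 6 higher and 13 lower (median -0.26 beside -0.20), and between the treatments 3 were higher and 4 lower in PLG+EACA+RNase (median -0.09 beside 0.04). The shares of all genes were 14.9% higher and 53.4% lower in the first comparison, and 16.0% and 48.4% in the second. They were 12.1% and 8.73% between the treatments. With median-of-ratios scaling the counts were 10 higher and 4 lower, 7 higher and 4 lower, and 1 higher and 6 lower in those comparisons. Shc1, an adaptor that couples gp130 to Ras, was lower under both scalings, at 32.9 ± 1.66 FPKM in PLG+EACA+RNase, 28.3 ± 1.47 FPKM in PLG+EACA and 47.6 ± 1.14 FPKM in untreated cells. Ptpn2, a phosphatase that acts on JAKs and STATs, was higher in both treatments, at 11.4 ± 0.335 and 12.5 ± 0.440 FPKM against 9.50 ± 0.294 FPKM in untreated cells. Grb2, another adaptor, was at 57.7 ± 2.35 FPKM in PLG+EACA+RNase, 54.7 ± 2.79 FPKM in PLG+EACA and 72.3 ± 1.89 FPKM in untreated cells, and Ptpn6, which encodes the phosphatase SHP-1, at 56.2 ± 5.64, 68.6 ± 3.66 and 90.2 ± 1.51 FPKM. Their signs were negative under both scalings, though Ptpn6 in PLG+EACA and Grb2 in PLG+EACA+RNase no longer passed with median-of-ratios scaling. Jak2, a kinase bound to gp130, averaged 93.2 ± 14.2 FPKM in PLG+EACA+RNase, 126 ± 15.9 FPKM in PLG+EACA and 122 ± 3.09 FPKM in untreated cells, and was lower in PLG+EACA+RNase than in PLG+EACA (log2 difference -0.44; limma, Benjamini-Hochberg adjusted p = 0.0162). Between the treatments Shc1 differed by 0.21 (adjusted p = 0.0139, limma) and Ptpn6 by -0.29 (adjusted p = 0.0139). On the 8 treated libraries alone 0 of the 21 passed between the treatments, in place of 7, and the calls of Jak2, Shc1 and Ptpn6 ended (adjusted p = 0.0621, 0.0595 and 0.0593, limma). The count was 3 without replicate 2 or 3 of PLG+EACA+RNase or replicate 4 of PLG+EACA, 4 without replicate 1 of PLG+EACA+RNase and 11 without its replicate 4.

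Chosen after their values were seen, Stat3, the factor that both cytokine systems activate, averaged 27.7 ± 3.23 FPKM in PLG+EACA+RNase, 32.2 ± 5.29 FPKM in PLG+EACA and 22.4 ± 0.769 FPKM in untreated cells. Its log2 fold changes against untreated cells were 0.30 and 0.50 (limma, Benjamini-Hochberg adjusted p = 0.0288 and 0.00126), and the difference between the treatments, -0.21, did not pass (adjusted p = 0.186). Socs3, which encodes a feedback inhibitor bound to gp130 and was chosen in the same way, averaged 73.9 ± 18.6, 104 ± 27.3 and 107 ± 5.65 FPKM in the same groups. In PLG+EACA its log2 fold change was -0.07 (adjusted p = 0.746, limma) and changed sign to 0.21 with median-of-ratios scaling. In PLG+EACA+RNase it was -0.56 (adjusted p = 0.0154, limma), and it did not pass with that scaling (-0.33, adjusted p = 0.18).

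Of 16 STAT3 targets and IL-10 response genes, all tested, 11 passed as higher and 3 as lower in PLG+EACA against untreated cells, with a median log2 fold change of 0.33 beside -0.26 for all genes, of which 14.9% were higher and 53.4% lower. For PLG+EACA+RNase 11 were higher and 2 lower (median 0.40 beside -0.20 for all genes, 16.0% higher and 48.4% lower), and between the treatments 1 was higher and 1 lower in PLG+EACA+RNase (median 0.02 beside 0.04). Between the treatments 12.1% of all genes were higher and 8.73% lower. The 2 calls between the treatments became 1 without replicate 2 or 3 of PLG+EACA+RNase and 5 without its replicate 4. With median-of-ratios scaling 12 were higher and 1 lower in each treatment. Junb, an AP-1 subunit, averaged 253 ± 19.9 FPKM in PLG+EACA+RNase, 245 ± 11.6 FPKM in PLG+EACA and 139 ± 5.13 FPKM in untreated cells. The kinase gene Pim1 averaged 164 ± 16.6, 181 ± 8.45 and 103 ± 4.001 FPKM in the same groups, and Tnfrsf1b, the second receptor for TNF, 469 ± 15.2, 492 ± 7.06 and 350 ± 6.48 FPKM. Hmox1, which encodes the haem-degrading enzyme heme oxygenase 1, was higher in both and higher in PLG+EACA+RNase (1855 ± 245 FPKM) than in PLG+EACA (1296 ± 236 FPKM), against 450 ± 44.7 FPKM in untreated cells. The log2 difference between its treatments was 0.53 (limma, Benjamini-Hochberg adjusted p = 0.0228). That call ended with no filter on low genes (adjusted p = 0.0606, limma), on the 8 treated libraries alone (0.0673) and without replicate 1, 2 or 3 of PLG+EACA+RNase (0.0551, 0.0602 and 0.0718). Cebpd, a C/EBP factor that acts on inflammatory genes, ran the other way, at 3.35 ± 0.713 FPKM in PLG+EACA+RNase, 5.20 ± 0.716 FPKM in PLG+EACA and 13.6 ± 0.888 FPKM in untreated cells. It was lower in PLG+EACA+RNase than in PLG+EACA by a log2 difference of -0.57 (limma, Benjamini-Hochberg adjusted p = 0.0108).

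Of 19 genes known to act on the transcription or mRNA decay of Il6 and Il10, all tested, 8 passed as higher and 4 as lower in PLG+EACA against untreated cells (median log2 fold change 0.12 beside -0.26). For PLG+EACA+RNase 5 were higher and 5 lower (median -0.08 beside -0.20), and between the treatments 2 were higher and 7 lower in PLG+EACA+RNase (median -0.18 beside 0.04). Shares of all genes were 14.9% higher and 53.4% lower in the first comparison, and 16.0% and 48.4% in the second. Between the treatments they were 12.1% and 8.73%. With median-of-ratios scaling the counts were 11 higher and 2 lower, 8 higher and 2 lower, and 2 higher and 8 lower. Cebpb, Cebpd, Nfil3 and Zfp36 of this list are also counted among the STAT3 targets. Zfp36, which encodes the mRNA decay factor tristetraprolin, averaged 32.7 ± 2.25 FPKM in PLG+EACA+RNase, 34.2 ± 3.42 FPKM in PLG+EACA and 19.7 ± 0.547 FPKM in untreated cells. Its relative Zfp36l1 was lower in both treatments, at 28.3 ± 1.35, 32.1 ± 1.39 and 50.4 ± 3.09 FPKM in the same groups. Nfkbiz, which encodes a nuclear cofactor of NF-kappa B needed for Il6 induction, averaged 30.2 ± 2.89, 37.8 ± 2.15 and 27.3 ± 0.780 FPKM. It was lower in PLG+EACA+RNase than in PLG+EACA (log2 difference -0.32; limma, Benjamini-Hochberg adjusted p = 0.00897), with no overlap between the libraries. Rela, the NF-kappa B subunit p65, averaged 55.0 ± 4.74, 65.6 ± 2.36 and 60.2 ± 1.33 FPKM and was also lower in PLG+EACA+RNase than in PLG+EACA (-0.26, adjusted p = 0.0129, limma), again with no overlap. Without replicate 2 or 3 of PLG+EACA+RNase, 4 and 3 of the 19 passed between the treatments, in place of 9. On the 8 treated libraries alone 2 passed, and the call of Rela ended (adjusted p = 0.0565, limma).

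Of 5 genes of receptor shedding, by which the IL-6 receptor is released as a soluble form, 4 were tested. In PLG+EACA 1 was higher and 2 lower than in untreated cells (median log2 fold change -0.09 beside -0.26), in PLG+EACA+RNase 1 was higher and 3 lower (median -0.23 beside -0.20), and between the treatments 1 was lower in PLG+EACA+RNase (median -0.17 beside 0.04). Beside these counts, 14.9% of all genes were higher and 53.4% lower in PLG+EACA, and 16.0% and 48.4% in PLG+EACA+RNase. Between the treatments 8.73% of all genes were lower. Adam17, the sheddase, averaged 32.0 ± 1.73 FPKM in PLG+EACA+RNase, 37.8 ± 2.37 FPKM in PLG+EACA and 49.7 ± 1.05 FPKM in untreated cells. Its difference between the treatments was -0.23 (log2; limma, Benjamini-Hochberg adjusted p = 0.0124), which did not pass on the 8 treated libraries alone (0.0566), and its fall in PLG+EACA did not pass with median-of-ratios scaling. Rhbdf2, which encodes a carrier of Adam17 to the cell surface, was higher in both treatments, at 40.47 ± 4.22 and 45.95 ± 1.55 FPKM against 35.3 ± 1.07 FPKM in untreated cells. Frmd8, a partner of that carrier, averaged 18.9 ± 0.832, 20.9 ± 1.05 and 22.8 ± 0.872 FPKM in PLG+EACA+RNase, PLG+EACA and untreated cells, and with median-of-ratios scaling its sign in PLG+EACA turned from -0.12 to 0.15.

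**Figure D5:**
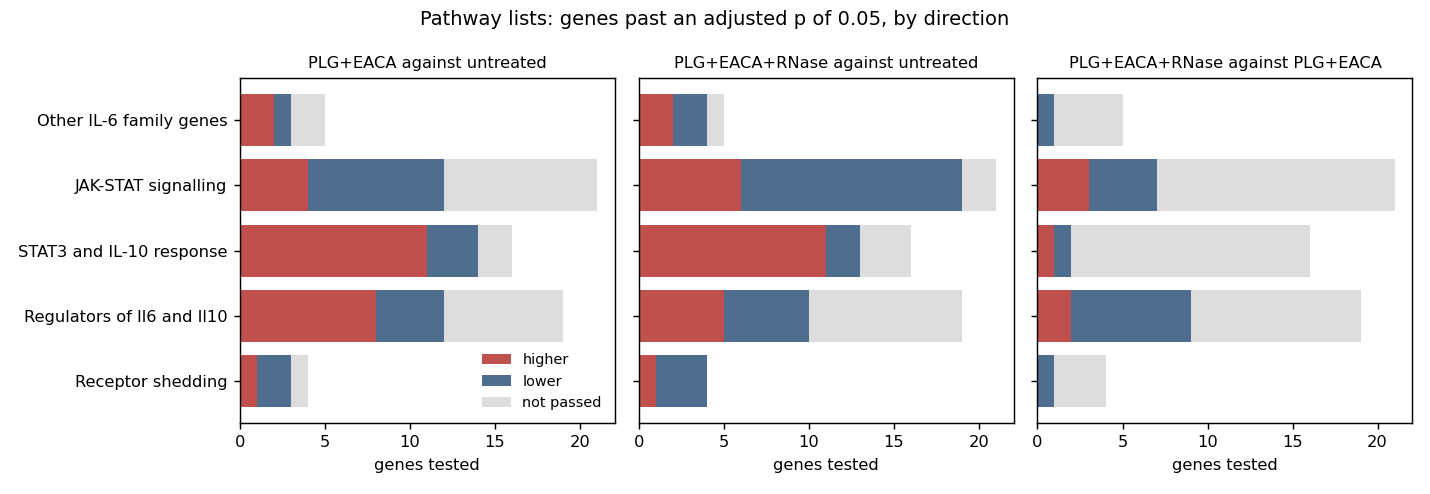
Number of tested genes (horizontal axis) of 5 pathway lists that were higher (red), lower (blue) or did not pass (grey) at an adjusted p of 0.05 in limma, in the 3 comparisons. The STAT3 list shares genes with the regulator and the JAK-STAT lists. The STAT3 and IL-10 response list has 11 higher genes against untreated cells in both treatments (of all genes 16.0% were higher in PLG+EACA+RNase and 14.9% in PLG+EACA), and the regulators of Il6 and Il10 have 7 lower genes between PLG+EACA+RNase and PLG+EACA (8.73% of all genes), though 2 of the 19 passed on the 8 treated libraries alone.

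Other marker lists were summed in the same libraries. The 3 endothelial markers summed to 3.15 to 5.56 FPKM in PLG+EACA+RNase, 4.94 to 7.68 FPKM in PLG+EACA and 2.54 to 3.83 FPKM in untreated cells, most of it Kdr, while Pecam1 was at most 0.378 FPKM in any library. The 4 mast cell and basophil markers in the table summed to 0.739 to 5.20, 0.244 to 0.640 and 0.178 to 1.22 FPKM in the same groups, and the 7 neutrophil markers to 8.79 to 24.9, 6.95 to 23.6 and 3.68 to 19.8 FPKM. The 5 stromal markers summed to 1.57 to 10.7, 1.504 to 16.2 and 6.34 to 16.1 FPKM. The ranges of the neutrophil and stromal sums overlapped between all groups. None of the markers in the table was at 0 in every library. The noncoding RNA Gm26917, which lies over ribosomal RNA sequence, took 13.3% to 15.2% of the counted reads in PLG+EACA+RNase, 11% to 14.3% in PLG+EACA and 10.3% to 11.9% in untreated cells. The part of these in the cytokine results was not tested, except that leaving Gm26917 out of the scaling gave Il6 log2 values of 2.21 and 3.20 against untreated cells and -0.99 between the treatments, and ended the call of Il10rb in PLG+EACA+RNase against untreated cells (-0.15, adjusted p = 0.0767, limma).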

How the data were processed

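Per the labels, total RNA of mouse bone marrow-derived macrophages was made into libraries with a directional kit. The authors deposited FPKM per gene, 1 column per library, with gene positions and lengths. Per the submitters' processing notes, the genome build was GRCm38.p6 and the tools included STAR 2.7.11a and featureCounts 2.0.6. FPKM times length was a whole number of reads, within 0.1, for 99.8% to 100% of the values checked in each library, at the depth recovered. The values checked were those above 0 in genes short enough for the rounding of FPKM to be small against a read. The recovery was tested on simulated data. Reads carry no molecular identifiers as far as stated, so intervals on reads cover counting error only. Pairs of libraries within groups had 2.97 to 30.6 as the ratio of chi-square to its degrees of freedom, so none was a repeat deposit of another.

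Genes with at least 1 FPKM in at least 4 of 12 libraries were tested on log2(FPKM + 0.5), a scale that understates changes of low genes, with limma 3.58.1 in R 4.3.3 (group means of all 12 libraries, eBayes with trend, two-sided). P-values were adjusted by Benjamini-Hochberg over the 11165 genes of a comparison. Simulated data served to test these limma steps. Lists are described by counts and medians, without a set test. Cebpb, Cebpd, Nfil3 and Zfp36 are in both the regulator and the STAT3 target lists. Socs3 is in both the JAK and STAT and the STAT3 target lists. Of each list, the 3 genes with the smallest p in PLG+EACA against untreated cells are named, with up to 3 that passed between the treatments. Members and lists were chosen with earlier results of these data known. There were 24 alternatives (pseudocount, filter, scaling, limma voom, fewer libraries, robust or weighted limma, replicate block, libraries left out). Replicate numbers were not used as a block in the main fit. Whether they pair libraries is not settled: 3 of 12 same-number pairs had a correlation above 0.1. Between the treatments it was 0.33 for replicate 4 and -0.18 for replicate 1. Cntfr, Ifnl2, Ifnl3, Mcpt4 and Gzma were not matched in the table.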

Additional observations from a re-analysis of the deposited data

Results flagged for a closer look

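In a group of 4 libraries, a value counted as standing apart when its gap to the nearest other library, divided by the range of the group, exceeded Dixon's critical value for 4 values at 95%. Of 24 combinations of gene and group, 2 did so, where chance gives about 1 in 20, and both were replicate 4 of PLG+EACA. Osm stood at 46.1 FPKM in that library (gap over range 0.864), above 24.7 to 27.6 FPKM in the other PLG+EACA libraries. Il10ra stood at 50.3 FPKM in it (0.895), above 41.1 to 42.1 FPKM in the others.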

How the results depend on the processing

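Of 576 values of the 8 genes under 24 alternatives, 549 kept their side of the threshold, and their direction wherever a fit passed. Changes of sign where neither fit passed were counted among the 549. Another 16 no longer passed and 10 newly passed. The remaining 1 passed in the main fit and turned its sign. It was the log2 fold change of Il10rb in PLG+EACA+RNase against untreated cells (0.0304 with median-of-ratios scaling). That fold change of Il10rb also lost its call in 8 other alternatives. Between the treatments, a limma fit on the 8 treated libraries alone, which has fewer libraries to estimate the spread, called 735 genes instead of 2324, 0 of the 8 genes, and 0, 0, 1, 2 and 0 genes of the IL-6 family, JAK and STAT, STAT3 target, regulator and shedding lists. With no filter, 1 of the 8 genes and 1 STAT3 target passed. Array weights gave 11 JAK and STAT genes, 4 STAT3 targets and 2 shedding genes, and median-of-ratios scaling 2 shedding genes. It is not settled if replicate numbers pair the libraries. Of 12 same-number pairs, 3 had a correlation above 0.1 (range -0.18 to 0.33), and 8 of 24 best matches were with their own number. The replicate block gave 4 STAT3 targets, 3 shedding genes and 1 IL-10 family gene, and 2 of the 8 genes as without it. The IL-10 family also gave 1 without Gm26917 in the scaling and 1 with limma voom. Leaving out libraries gave 929 to 3180 genes, 1 to 4 of the 8 genes, and 0 to 2, 0 to 1, 3 to 11, 1 to 5, 3 to 11 and 1 to 3 genes of the IL-6 family, IL-10 family, JAK and STAT, STAT3 target, regulator and shedding lists. The 929 came without replicate 3 of PLG+EACA+RNase, with 947 without its replicate 2 and 1452 without replicate 4 of PLG+EACA. For the IL-6 family, JAK and STAT, STAT3 target and regulator lists, the lowest counts came without replicate 2 or 3 of PLG+EACA+RNase (and 3 JAK and STAT genes without replicate 4 of PLG+EACA, 4 without replicate 1 of PLG+EACA+RNase), and for all 6 lists the highest came without its replicate 4, where the IL-10 family gene passed as it did without replicate 3 of PLG+EACA. Leaving out replicate 4 of both treatments was chosen after seeing the data and gave 4 of the 8 genes, all lower. In PLG+EACA+RNase against untreated cells, median-of-ratios scaling gave 11 JAK and STAT genes instead of 19 and 2 shedding genes instead of 4, and no filter or a filter at 0.1 FPKM gave 2 IL-10 family genes instead of 1. Where a cause is not named, the cause was not tested. Il10 rests on 1 to 5 reads in untreated libraries, which limits the precision of its fold changes.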
